A study of Mus musculus with 2 samples.

Results

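The genes described here are 10 genes with which the enterocyte, the absorptive cell of the small intestine, turns dietary fat into chylomicrons. They were chosen by name, as genes for the handling of an oral oil load, and all 10 were found among the 23358 genes of the table. Ileum, the last stretch of the small intestine, was taken from BALB/c mice of 21 days that had been randomly assigned to groups. Group E (castor oil plus EA, ellagic acid, a plant polyphenol) received 0.1 ml of saline by intraperitoneal injection, 0.2 ml of castor oil by mouth and then 0.3 ml of EA at 10 mg/ml by mouth. Group D (castor oil plus saline, the diarrhea model) received the same injection and castor oil and then 0.3 ml of saline by mouth. Treatment was given once a day for 3 days, and both groups carried the oil, so that their comparison is one of EA with saline after an oil load and holds no mouse without oil. The study sequenced 2 libraries per group, but the table holds a single value for each gene in each group. Its unit is FPKM, the number of fragments scaled to transcript length and to all mapped fragments. No SD can therefore be given for any value here, no difference has a replicate check, and no test was run. The depth behind the values is unknown from the table.

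Fat absorbed as fatty acids and monoacylglycerol is rebuilt into triglyceride at the endoplasmic reticulum (ER) of the enterocyte. MTTP loads this triglyceride onto apolipoprotein B, and the growing particle leaves the ER, takes up further apolipoproteins and is secreted into lymph as a chylomicron. The pathway is most active in the upper small intestine and is weaker in the ileum, where bile acids are taken back. Castor oil is itself a triglyceride, rich in ricinoleic acid, which is released in the gut and provokes fluid secretion and motility.

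None of the 10 genes differed by more than 2-fold between group E and group D. For comparison, 12694 genes were above 0 FPKM in each group and averaged at least 1 FPKM, a filter that all 10 genes passed in either group alone. Of these, 2.9% were past 2-fold (1.59% higher and 1.31% lower in group E), so a count of 0 among 10 genes is close to this background. At levels of 50 FPKM or more in each group, which holds all 10 genes, the share was 1.72% of 1394 genes. Of the 10 genes, 4 were higher and 6 lower in group E. Their log2 changes (FPKM in group E over FPKM in group D, no pseudocount) ran from -0.62 for Dgat1 to 0.23 for Apoa4, with a median of -0.04. The median over the 12694 genes was 0.01. In absolute size the median log2 difference was 0.12 for the 10 genes and 0.20 for the 12694 genes, or 0.18 for the 1394 genes.

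All 10 genes were highly expressed in both groups. Fabp2 ranked 12 among all genes listed in group E and 7 in group D, and even the lowest of the 10, Dgat2, ranked 821 in group E and 838 in group D. Summed, the 10 genes held 8626 FPKM in group E and 9235 FPKM in group D. With the rows of short RNAs set aside, this was 1.84% of all FPKM in group E and 2.05% in group D. In group E the levels ran in the order Fabp2, Apoa1, Apoa4, Mttp, Apob, Apoc2, Mogat2, Apoc3, Dgat1 and Dgat2. In group D the first 3, the sixth and the last were the same genes, Apob stood above Mttp, and Dgat1 stood above Mogat2 and Apoc3. With 1 value per group it cannot be said which neighbours in these orders differ beyond their spread.

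**Figure D1:**
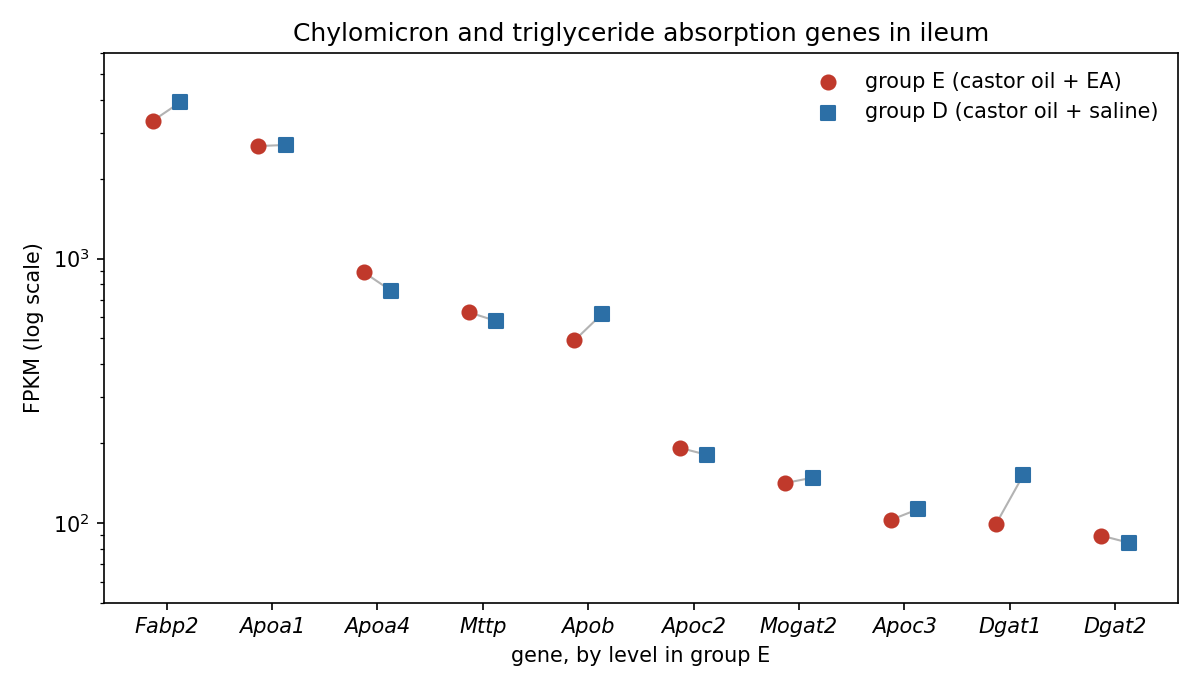
FPKM (log scale) of the 10 genes in group E (circles) and group D (squares), 1 deposited value per gene and group, so without error bars. The points of a gene lie close together, with the widest gap for Dgat1 at 99.1 FPKM in group E and 152 FPKM in group D.

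To show what lies in front of these genes, 250 bases before a start of the gene (GRCm38.p6) are printed. For Fabp2 and Apoa4 this is the RefSeq start, and for Apob a later one. These are 3 of the 6 genes for which such a window was matched: the most abundant of the 10, and those of the 6 with the largest difference downward and upward. Fabp2 is at chr3:122894822-122895071 on the plus strand, Apob at chr12:7977427-7977676 on the plus strand and Apoa4 at chr9:46240594-46240843 on the plus strand. RefSeq starts Apob at 7977629, so the last bases of its window lie inside the gene as RefSeq gives it. GENCODE M21 starts Apoa4 at 46240696, so most of its window lies inside the gene as GENCODE M21 gives it. The letters are those of the reference mouse strain, not of BALB/c. Capitals mark matches, on either strand, to any of 5 short motifs: the core promoter letters TATAAA, the nuclear receptor half-site AGGTCA, the HNF1 half-site GTTAAT, the letters AGATAA to which GATA factors bind, and TTTATNG, to which CDX factors bind.
Fabp2: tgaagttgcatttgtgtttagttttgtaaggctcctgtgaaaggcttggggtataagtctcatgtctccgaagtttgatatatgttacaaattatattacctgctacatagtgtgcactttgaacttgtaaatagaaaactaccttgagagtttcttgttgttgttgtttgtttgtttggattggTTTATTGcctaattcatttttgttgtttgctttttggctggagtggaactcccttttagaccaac
Apob: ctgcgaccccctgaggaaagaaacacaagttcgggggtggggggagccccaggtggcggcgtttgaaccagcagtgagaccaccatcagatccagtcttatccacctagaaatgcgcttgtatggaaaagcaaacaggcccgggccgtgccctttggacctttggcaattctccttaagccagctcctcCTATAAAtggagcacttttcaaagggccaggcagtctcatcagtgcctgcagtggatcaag
Apoa4: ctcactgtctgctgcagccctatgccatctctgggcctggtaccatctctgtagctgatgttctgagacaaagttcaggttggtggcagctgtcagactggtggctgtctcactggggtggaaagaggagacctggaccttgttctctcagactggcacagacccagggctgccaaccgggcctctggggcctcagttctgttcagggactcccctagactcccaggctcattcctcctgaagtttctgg

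The CDX letters stood in 3 of the 6 windows, those of Fabp2, Apob and Apoc2, and in 10.2% of 27025 windows of the same length over all genes. With 6 windows no excess was tested. The match of Apoc2 lies 174 to 168 bases before its start. Only 141 bases part Apoc2 from its neighbour Apoc4 in GENCODE M21, so this match lies inside Apoc4. The stretch in capitals of Apob lies from 61 to 55 bases before 7977677, the start listed for the gene, and so closer to the RefSeq start. It holds both the CDX letters, read on the minus strand, and TATAAA, which overlap there. TATAAA was in 13% of all windows. The nuclear receptor half-site was matched for Apoc2 alone among the 6 and in 13.8% of all windows, the HNF1 half-site likewise for Apoc2 alone and in 6.52%, and the GATA letters in none of the 6 and in 10.3%. A match is a description of letters and says nothing of a factor bound there. The windows differed in base composition, with 35.6% G and C for Fabp2, 55.2% for Apob and 57.6% for Apoa4.

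Fabp2, the intestinal fatty acid binding protein, carries long-chain fatty acids through the cytosol of enterocytes and is made there almost alone. It was listed at 3327 FPKM in group E and 3910 FPKM in group D, a log2 change of -0.23. Differences of that size were common, since 43.7% of the 12694 genes had a larger one. The table places Fabp2 on chromosome 3 from 122882592 to 122924116, a span of 41525 bases, whereas RefSeq gives the gene 4435 bases, from 122895072 to 122899506. The table's span thus reaches beyond the gene on both sides, and an antisense gene, 4933405D12Rik, overlaps it in GENCODE M21.

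The enzymes that rebuild triglyceride held the largest difference among the 10 genes. Mogat2 joins a fatty acid to monoacylglycerol, the main route in the intestine, and Dgat1 and Dgat2, which are not related in sequence, each add the last fatty acid to diacylglycerol. Dgat1 (chromosome 15 from 76502015 to 76511818, minus strand) was listed at 99.1 FPKM in group E and 152 FPKM in group D. It was thus 1.53-fold lower in group E (log2 change -0.62), the single gene of the 10 past 1.5-fold, a fold exceeded by 10.2% of the 12694 genes. The difference lost that place when set relative to the median enterocyte marker (log2 change -0.52) or to Vil1 alone (-0.57), both under 1.5-fold. A larger difference in either direction was listed for 9.23% of the 12694 genes and for 5.74% of the 1394 genes at 50 FPKM or more.

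Dgat2 and Mogat2 lie 36364 bases apart in GENCODE M21 on chromosome 7, on the minus strand, and belong to one gene family. Dgat2 (from 99153663 to 99182713) was at 89.6 FPKM in group E and 84.2 FPKM in group D, and Mogat2 (from 99219084 to 99238611) at 142 FPKM in group E and 148 FPKM in group D. Neither came near the difference listed for Dgat1. Within group E, the FPKM ratio of Dgat1 to Dgat2 was 1.11, and within group D it was 1.80. Mogat2 stood at 1.43 times the FPKM of Dgat1 in group E and at 0.977 times in group D. A ratio taken within a group does not depend on how the groups were scaled to each other, but it does rest on 1 value for each gene. Mogat2 overlaps an antisense gene, Gm45012, in GENCODE M21.

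Other enzymes of triglyceride resynthesis were mostly listed a little higher in group E. Of 14 genes on a list for this step that leaves out the 10, 11 had a mean of at least 1 FPKM. None of these was past 2-fold, against 2.9% of the 12694 genes. Of the 11, 8 were above 0 and 3 below, with a median log2 change of 0.26. Acsl5, which activates fatty acids in enterocytes, was at 486 FPKM in group E and 488 FPKM in group D. Agpat2, which adds the second fatty acid to the glycerol backbone, was at 272 FPKM in group E and 199.6 FPKM in group D. Lpin1, a phosphatidate phosphatase, had the largest difference among the 11, at 5.16 FPKM in group E and 2.76 FPKM in group D. Lpin2 and Lpin3, of the same family and more abundant, went the other way. Lpin2 was at 43.8 FPKM in group E and 57 FPKM in group D, and Lpin3 at 25.8 FPKM in group E and 32.6 FPKM in group D. Gpat3 (listed under its older name Agpat9), which starts the glycerol phosphate route, stood at 63.35 FPKM in group E and 58.1 FPKM in group D. Lpin1, Lpin2, Lpin3 and Gpat3 were chosen after their values were seen.

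The genes that build the particle itself, Apob and Mttp, differed in opposite directions by small amounts. Apob encodes the large structural protein of which each chylomicron carries a single copy, in enterocytes as a short form made by editing of the mRNA. Apob (chromosome 12 from 7977677 to 8016839, plus strand) was at 490.4 FPKM in group E and 617 FPKM in group D, a log2 change of -0.33, and 28.5% of the 12694 genes had a larger difference. Mttp (chromosome 3 from 138089855 to 138143388, minus strand), the ER protein that transfers lipid onto apolipoprotein B, was at 627 FPKM in group E and 581 FPKM in group D, a log2 change of 0.11. The FPKM ratio of Apob to Mttp was 0.783 in group E and 1.06 in group D. Mttp overlaps the start of the neighbouring gene Trmt10a and an antisense gene, Gm43691, in GENCODE M21.

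Partners of Apob and Mttp and the machinery that carries the particle out of the ER were near equal in the groups. None of 22 genes on that list was past 2-fold, which is close to the share of 2.9% over the 12694 genes. Their log2 changes ran from -0.39 to 0.43, with a median of 0.05. P4hb, the disulfide isomerase that forms the other subunit of the lipid transfer protein, was at 553 FPKM in group E and 532 FPKM in group D. Surf4, a cargo receptor for lipoproteins in the ER, was at 149 FPKM in group E and 132.5 FPKM in group D. Apobec1, the enzyme that edits Apob mRNA, was at 31.9 FPKM in group E and 31.1 FPKM in group D. Sar1b, the coat GTPase whose loss causes chylomicron retention disease in humans, had the largest difference downward, at 95.7 FPKM in group E and 125.4 FPKM in group D (log2 change -0.39). Bet1, a SNARE protein of ER-to-Golgi transport, had the largest upward, at 26.9 FPKM in group E and 19.9 FPKM in group D. Apobec1, Sar1b and Bet1 were chosen after their values were seen.

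**Figure D2:**
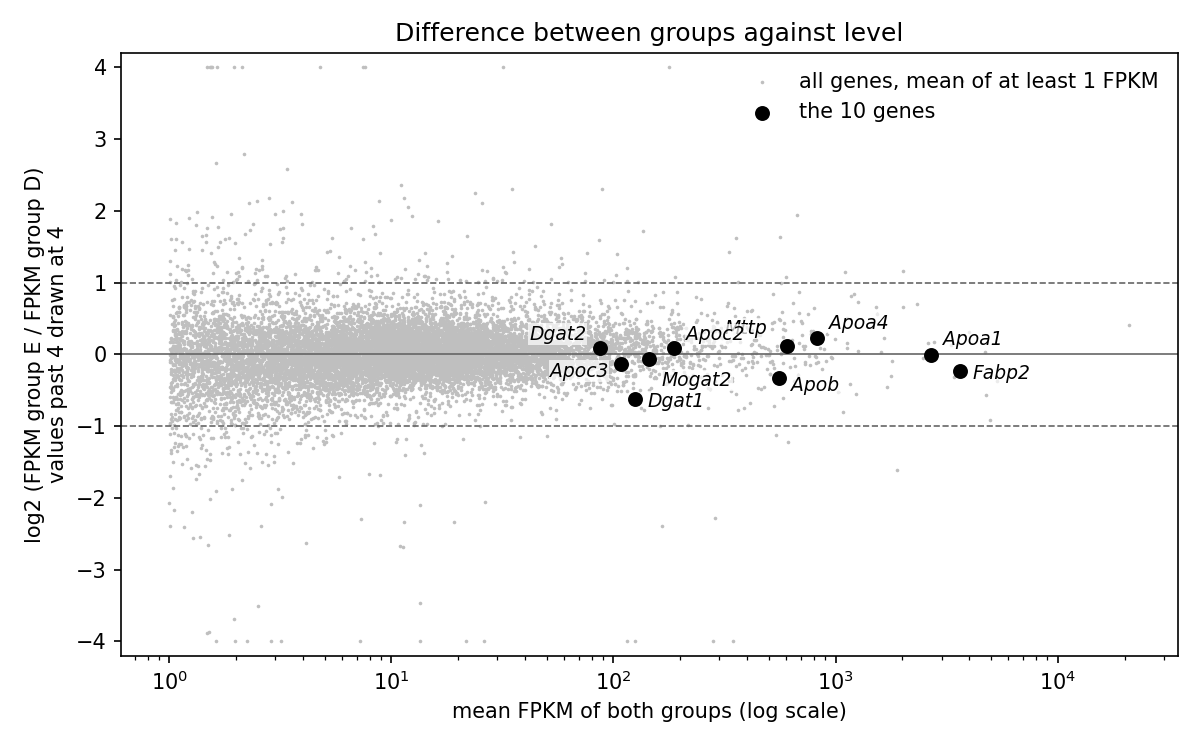
Log2 of FPKM in group E over FPKM in group D against the mean FPKM of both groups (log scale) for 12694 genes (grey) and the 10 genes (black), with dashed lines at 2-fold and values past 4 drawn at 4. The 10 genes lie at high levels and all between the dashed lines, with Dgat1 the lowest at -0.62 and Apoa4 the highest at 0.23.

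The apolipoproteins carried on the surface of chylomicrons were listed at similar levels in both groups. Apoa1, a major protein of chylomicrons and of high density lipoprotein, was at 2667 FPKM in group E and 2693 FPKM in group D (log2 change -0.01), the smallest difference of the 10 genes. Apoa4, which is made with fat absorption and helps the particle grow, was at 889 FPKM in group E and 756 FPKM in group D (log2 change 0.23), the largest difference upward. Apoc3, which slows the clearance of the particles, was at 103 FPKM in group E and 113 FPKM in group D (log2 change -0.14). The difference of Apoa4 was exceeded by 43.7% of the 12694 genes.

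Apoa1, Apoc3 and Apoa4 sit side by side on chromosome 9, from 46228630 to 46230466, 46233051 to 46235297 and 46240844 to 46243458, with Apoc3 on the minus strand and the others on the plus strand. By their ends in GENCODE M21, which differ a little from those of the table, gaps of 2466 and 5059 bases part them. Their levels differed widely, and the FPKM ratio of Apoa4 to Apoa1 was 0.333 in group E and 0.281 in group D, while that of Apoc3 to Apoa1 was 0.0385 in group E and 0.0419 in group D. Their neighbour Apoa5, which in mice and humans is known from liver, was listed at 0.0257 FPKM in group E and at 0 in group D. Apoa4 overlaps the antisense gene Gm10680 and Gm47528 in GENCODE M21.

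Apoc2, the cofactor that lipoprotein lipase needs to take triglyceride from chylomicrons, lies in a second apolipoprotein cluster on chromosome 7. It was at 192 FPKM in group E and 181 FPKM in group D, a log2 change of 0.09. Its neighbours differed more. Apoe, the ligand for uptake of chylomicron remnants, was at 312 FPKM in group E and 182 FPKM in group D (log2 change 0.78). Apoc1 was at 0.754 FPKM in group E and 13.8 FPKM in group D, and Apoc4 at 1.26 FPKM in group E and 0.134 FPKM in group D. The FPKM ratio of Apoc2 to Apoe was 0.616 in group E and 0.992 in group D, and that of Apoc3 to Apoc2 was 0.533 in group E and 0.623 in group D. The table places Apoc2 from 19671579 to 19676864 on the minus strand. Apoc4, on the same strand, lies upstream of Apoc2, with 141 bases between them in GENCODE M21. In GENCODE M21 a gene named Gm44805, also on that strand, overlaps both. Reads of Apoc2, Apoc4 and Gm44805 may therefore be shared, and their values are uncertain to that extent.

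**Figure D3:**
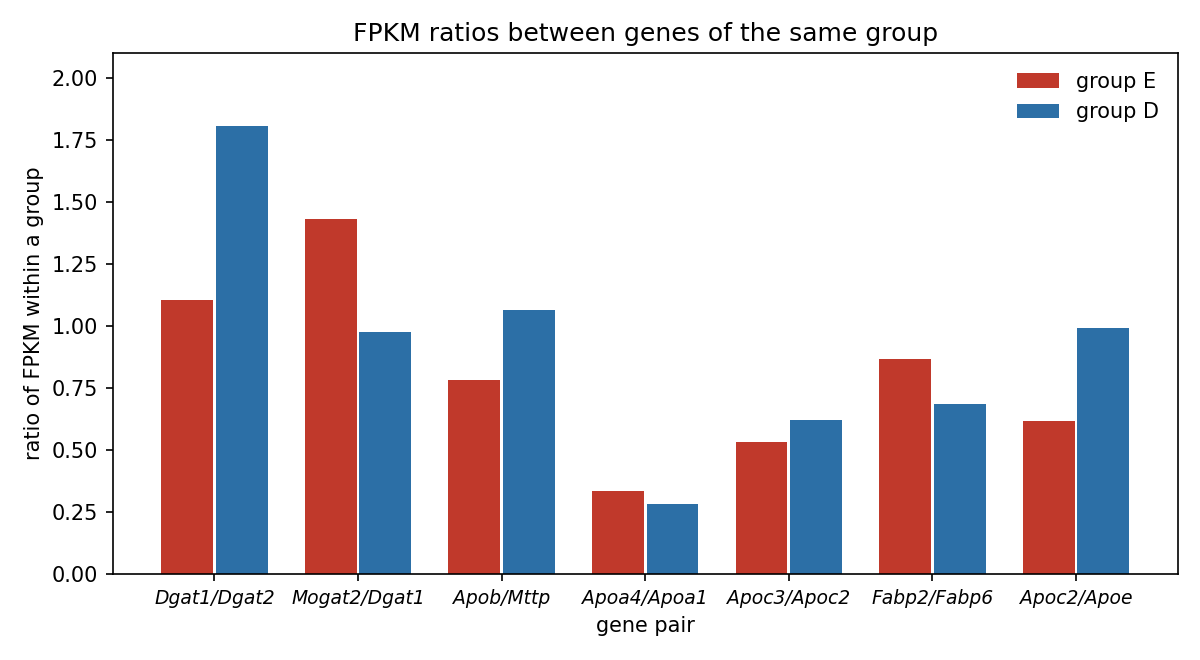
FPKM of the first gene over FPKM of the second within the same group, for 7 pairs, in group E (left bars) and group D (right bars), 1 value each and without error bars. The ratio of Dgat1 to Dgat2 differs most, at 1.11 in group E and 1.80 in group D, and that of Apoa4 to Apoa1 differs little, at 0.333 in group E and 0.281 in group D.

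Of other apolipoproteins and lipoprotein partners with a mean of at least 1 FPKM, 4 of 14 were past 2-fold, against 2.9% of 12694 genes. The higher ones were Gpihbp1, which holds lipoprotein lipase on capillary walls (5.03 FPKM in group E and 2.31 FPKM in group D), and Apod (1.68 FPKM in group E and 0.741 FPKM in group D). The lower ones were Apoc1 and Apoh, of which Apoh, a plasma protein made by liver, was at 0.669 FPKM in group E and 1.43 FPKM in group D. All of these stood well below the 10 genes in level, with Apod, Apoh and, in group E, Apoc1 near the filter of 1 FPKM. The list's median log2 change was 0.06.

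On a list for fatty acid entry at the brush border, 2 of 8 genes with a mean of at least 1 FPKM were past 2-fold. Both were lower in group E, and the share over the 12694 genes was 2.9% in either direction. Not all genes on the list act at the membrane, since Fabp1 and Fabp6 are carriers inside the cell. Fabp1, the second fatty acid carrier of the enterocyte, was at 367 FPKM in group E and 854 FPKM in group D. Cd36, a fatty acid receptor of enterocytes, fat cells and macrophages, was at 6.32 FPKM in group E and 32 FPKM in group D. Fabp2 therefore stood at 9.07 times the FPKM of Fabp1 in group E and at 4.58 times in group D. Slc27a4, a fatty acid transport protein of enterocytes, was at 206 FPKM in group E and 209 FPKM in group D. Npc1l1, the cholesterol importer, was at 104 FPKM in group E and 105 FPKM in group D. Both were chosen after their values were seen.

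The annotation in the table itself ties most of the 10 genes together. KEGG's pathway for fat digestion and absorption (a list added after the values were seen) holds 8 of them among 37 genes, all but Apoc2 and Apoc3. Of its 29 other genes, 21 had a mean of at least 1 FPKM, and the 2 past 2-fold were again Cd36 and Fabp1. Over the 12694 genes the share past 2-fold was 2.9%. The cellular component term chylomicron is given to 5 of the 10, namely its apolipoprotein genes, and to 7 other genes. Of these 7, 5 had a mean of at least 1 FPKM, and Apoh and Lpl, the lipase that unloads chylomicrons in fat and muscle, were past 2-fold lower, with Lpl at 1.52 FPKM in group E and 41.8 FPKM in group D.

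Transcription factors that act on enterocyte lipid genes showed small differences. Of 14 on the list 1 was past 2-fold: Gata4, a factor of the upper small intestine, at 11.7 FPKM in group E and 5.43 FPKM in group D. Hnf4a, a main activator of apolipoprotein genes and of Mttp, was at 303 FPKM in group E and 266 FPKM in group D, and Creb3l3, which acts on Apoa4 and other lipid genes, at 184 FPKM in group E and 187 FPKM in group D. Hnf4a and Creb3l3 were chosen after their values were seen. The median log2 change of the list was 0.17, and 2.9% of the 12694 genes were past 2-fold.

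Position along the intestine bears on these genes, and some genes that mark it differed between the groups. Of 7 genes of the proximal small intestine with a mean of at least 1 FPKM, 3 were past 2-fold higher in group E. They were Gata4, Lct, the lactase of the brush border (18.4 FPKM in group E and 3.59 FPKM in group D), and Ada, adenosine deaminase (25.6 FPKM in group E and 7.03 FPKM in group D). Fabp1, which is also on that list, was past 2-fold lower. Over the 12694 genes, 1.59% were past 2-fold higher and 1.31% lower in group E. Of 8 ileal genes 1 was past 2-fold, the hormone gene Fgf15, at 4.04 FPKM in group E and 0.92 FPKM in group D. Among the others, the bile acid carrier Fabp6 was at 3846 FPKM in group E and 5698 FPKM in group D, and the bile acid transporter Slc10a2 at 142 FPKM in group E and 234 FPKM in group D. Fabp2 stood at 0.865 times the FPKM of Fabp6 in group E and at 0.686 times in group D. Fabp6 and Slc10a2 were chosen after their values were seen and had the largest differences downward on the ileal list. The median log2 change of that list was -0.16, with 2 of the 8 genes above 0 and 6 below. Of the 7 proximal genes, 5 were above 0 and 2 below. Slc40a1 was below (log2 change -0.55) and Cybrd1 near 0 (0.003), both chosen after their values were seen. Neither list thus went 1 way throughout. Whether the groups differed in position along the intestine was not tested, nor was its part in the values of the 10 genes.

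The label of the tissue was checked against cell type markers. Enterocyte markers were abundant in both groups, with a sum of 7333 FPKM in group E and 7409 FPKM in group D over 11 genes. None was past 2-fold, against 2.9% of the 12694 genes, and the median log2 change was -0.10. Of the 11, 1 (Anpep) was above 0 and 10 were below. Treh, chosen after its value was seen, was the lowest (log2 change -0.65). Anpep, a brush border peptidase, was at 2756 FPKM in group E and 2465 FPKM in group D, and Vil1, the villus actin bundler, at 949.8 FPKM in group E and 980 FPKM in group D. Set against Vil1 within each group, Dgat1 stood at 0.104 in group E and 0.155 in group D. In bulk tissue fewer cells of a type and less RNA per cell cannot be told apart.

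Liver also makes most of these apolipoproteins, but its defining markers were at or near 0. Alb (albumin) was listed at 0 in group E and at 0.111 FPKM in group D, and the fibrinogen genes Fgb and Fgg at 0 in both groups. The liver list summed to 265 FPKM in group E and 247 FPKM in group D over 11 genes, of which Cps1, a gene enterocytes also use, gave 261 FPKM in group E and 239 FPKM in group D. Of the other 3 with a mean of at least 1 FPKM, Apoh and Tat were past 2-fold lower, against 1.31% of the 12694 genes. Tat was at 0.475 FPKM in group E and 1.54 FPKM in group D. Alb, Fgb, Fgg and Cps1 were chosen after their values were seen, as were Prss2, Cpa1 and Pnlip. Markers of pancreatic acinar cells were at or near 0 as well apart from Cela1, with Prss2, Cpa1 and Pnlip at 0 in both groups and a sum of 1.64 FPKM in group E and 1.45 FPKM in group D over 7 genes.

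Markers of fat cells differed strongly between the groups, and fat cells also use Dgat1 and Dgat2. Of 10 such genes, 7 were above 0 FPKM in each group (Lipe with a status of FAIL in the table). Of these 7, 5 were past 2-fold, 4 higher and 1 lower in group E, against 2.9% of the 12694 genes. Adipoq was at 63.35 FPKM in group E and 0.12 FPKM in group D, and Fabp4 at 25.6 FPKM in group E and 536 FPKM in group D. The higher ones were Plin1, Car3 and Cidec along with Adipoq, and Cfd, Retn and Lep were listed at 0 in group D. Lipe, Cfd, Retn and Lep were chosen after their values were seen. The list summed to 969.5 FPKM in group E and 670 FPKM in group D. The part of fat cells in the values of Dgat1 and Dgat2 was not tested.

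**Figure D4:**
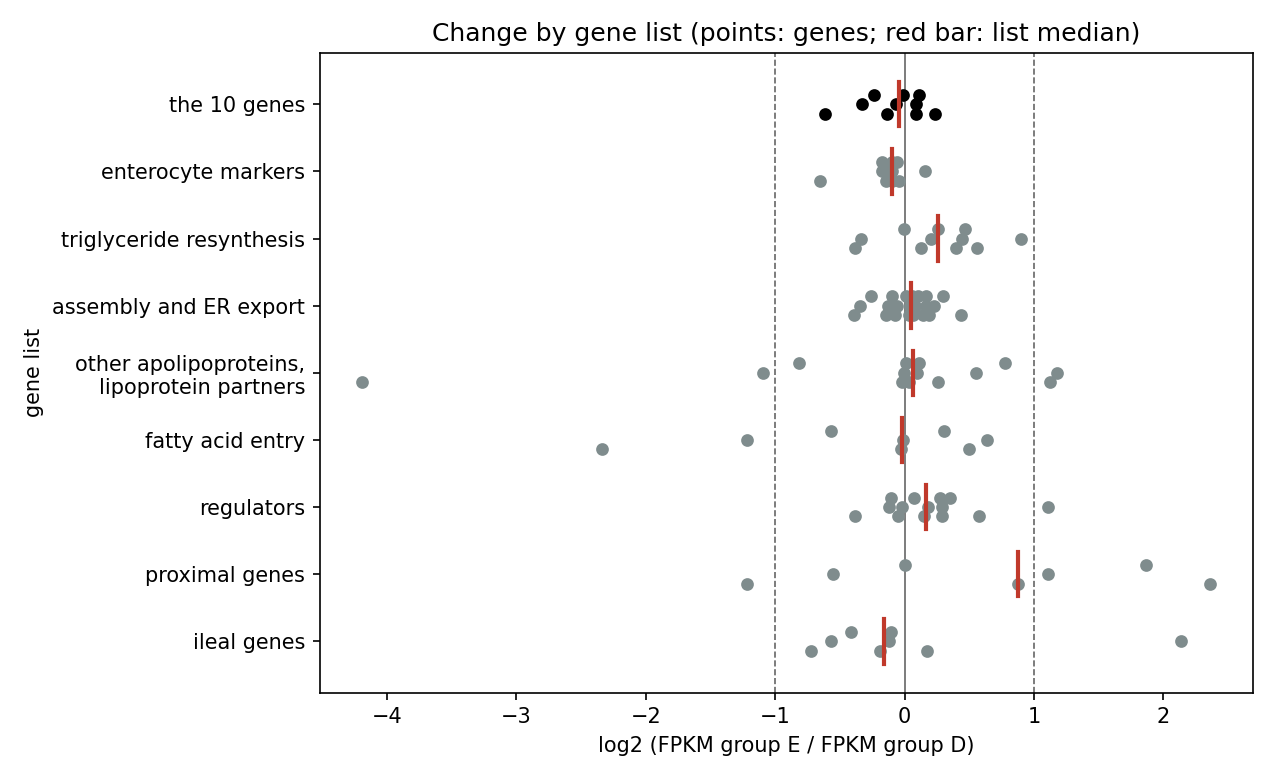
Log2 of FPKM in group E over FPKM in group D for each gene with a mean of at least 1 FPKM, by list, with the list's median as a red bar and dashed lines at 2-fold. The 10 genes, the enterocyte markers, triglyceride resynthesis and ER export lie inside 2-fold. Outside lie 4 other apolipoproteins or lipoprotein partners, 2 genes on the fatty acid entry list, 1 regulator, 4 proximal genes and 1 ileal gene.

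Values across the table need care in both directions. Actb was listed at 4745 FPKM in group E and 4630 FPKM in group D, but Gapdh, a glycolysis gene of every cell, only at 2.98 FPKM in group E and 0.12 FPKM in group D, so that values near 0, such as those of Adipoq or Apoc4, can be failed estimates. In group D, Gapdh and Adipoq were listed at the same value (0.120016 FPKM), for which no reason is given. The 10 genes carry no value near 0. Each has the status OK in the table, but so have Adipoq and Apoc4, so the status does not set failed estimates apart.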

How the data were processed

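RNA from ileum of group D and group E was sequenced by the authors, who aligned paired-end reads with TopHat2 2.0.12 on a Bowtie2 2.2.3 index and named DESeq 1.18.0 for their comparison, per the submitters' processing notes. The deposited table gives FPKM computed by the authors, 1 value per gene and group. The program behind these FPKM, the genome build, the use of strand in counting and the joining of 2 libraries into 1 value are not stated in the sources used here. Columns of the table with the fold change, P-value and q-value, and a second table of pathway enrichment, hold the authors' own comparison and were not used. Directions follow the table's group columns.

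From the FPKM, the log2 of group E over group D was computed, and genes past 2-fold were counted among genes above 0 FPKM in each group whose mean was at least 1 FPKM. The members and lists were chosen with earlier results of these data known. Named are the 10 genes, genes of their 2 apolipoprotein clusters, Actb and Gapdh, and from each list the genes past 2-fold with a mean of at least 1 FPKM or, where there was none, the 2 with the highest mean. Genes outside this rule are marked as chosen after their values were seen, as were the pairs of the ratios. Starts are given with 1 added, since the table counts from 0. Of 21519 symbols found in RefSeq GRCm38.p6, 21267 overlapped the same gene there. The counting functions were tested on simulated data. Alternatives were other fold thresholds, scalings, pseudocounts and filters. Python 3.11.15, numpy 2.4.6, pandas 2.3.3 and matplotlib 3.10.9 were used.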

Additional observations from a re-analysis of the deposited data

How the results depend on the processing

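The count of 0 of the 10 genes past 2-fold was by necessity the same at a threshold of 3-fold. It was also the same after centring on the median gene, after upper-quartile scaling, after rescaling without short RNAs and with a pseudocount of 1. These scalings shift every gene alike, by a log2 of 0.01 to 0.06, and a pseudocount of 1 is small beside levels of 84.2 FPKM or more. They could therefore hardly move the count or the median. The count was 1 (Dgat1) at a threshold of 1.5-fold and 2 (Cd36 and Fabp1) over the KEGG genes, a list added after seeing the data. The median log2 change of the 10 genes stayed within 0.1 of its value under every scaling and pseudocount listed, as a mean and over the KEGG genes. Of 60 values of single genes under other scalings and pseudocounts, 58 kept their sign, and Apoa1 and Mogat2 turned to 0.08 and 0.03 when set relative to the enterocyte markers. Dgat1 ran from -0.67 to -0.52, and was under 1.5-fold relative to the enterocyte markers. The share of all genes past 2-fold was 2.9% as reported, 8.89% with no minimum level, 1.64% with a mean of at least 10 FPKM and 1.72% with at least 50 FPKM in each group, the last added after seeing the data. No replicate could be left out and no paired analysis was possible because the table holds 1 value per group, and it gives no fragment counts from which a counting error could be had.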
